A study of Lactuca sativa with 12 samples.

Results

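The genes described here are those whose products loosen, cut, cross-link or build the wall of lettuce leaf cells. They were taken from the union of the authors' 6 deposited tables of differentially expressed genes by 9 words in the RefSeq name, ignoring case: expansin, pectin, polygalacturonase, cellulose synthase, extensin, xyloglucan, endoglucanase, arabinogalactan and pectate lyase. Leaving out 3 tandem copies of xyloglucan endotransglucosylase/hydrolase 23 on chromosome 8, LOC111909622, LOC111909624 and LOC111909625, the rule gave 38 members of the 2264 genes that the tables list. By role they were 6 expansins, 5 xyloglucan enzymes, 15 pectin enzymes or inhibitors of such enzymes, 2 cellulose synthase-like proteins, 3 endoglucanases and 7 proteins named as extensins or arabinogalactan proteins.

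The primary wall of a plant cell is a network of cellulose fibrils tied together by xyloglucan and embedded in pectin, with structural glycoproteins woven in. Expansins loosen it without cutting, and xyloglucan endotransglucosylase/hydrolases (XTHs) cut and rejoin the xyloglucan tethers. Pectinesterases strip methyl groups from pectin, polygalacturonases and pectate lyases cut the demethylated chain, and dedicated protein inhibitors hold the first of these enzymes and the fungal polygalacturonases in check. In leaves these activities set how far a cell can expand, and demethylated pectin is a known binding site for divalent metals such as cadmium.

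Whole leaves of the lettuce cultivar Red oak-leaf were sequenced in 4 groups of 3 libraries each, which the series' text calls biological replicates. Hydroponic seedlings aged 4 weeks were moved to full-strength Hoagland solution and leaves were taken at the 6-leaf stage, at 1.5 months. CK plants received neither agent, Cd plants received 10 mg/L cadmium, SeNP plants 3 mg/L biosynthesized selenium nanoparticles, and CdSeNP plants both agents at those doses. The labels give the cadmium dose both as Cd and as the hydrated chloride salt, they do not say how many plants went into a library, and every library carries the same batch label.

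A gene was called where its DESeq2 p, adjusted over all genes tested, was under 0.05 and its log2 fold change over 1 in size. Each table lists called genes only, so a member's absence says only that the gene failed the threshold in that comparison, which does not show that it was unchanged. Members entered by being called. A member listed only in comparisons with a single group was therefore selected for standing apart in that group. Library sizes recovered from the tables ran from 23305756 to 31358371 reads. Genes of the light reactions and Rubisco served as mesophyll markers. They too were listed only because some comparison called them. Differences of their sums between groups therefore come with that selection, and uncalled genes of this kind are missing. The 25 mesophyll marker genes with values everywhere summed to 28360 to 30190 FPKM in CK, 12910 to 13880 in Cd, 30500 to 31480 in SeNP and 12730 to 13300 in CdSeNP. FPKM counts fragments scaled to transcript length and to library size. Among controls, library CK 2 stood apart: the chi-square of its counts per degree of freedom was 48.9 against CK 1 and 48.3 against CK 3, whereas CK 1 against CK 3 gave 8.91.

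Against untreated leaves, 3 expansins and both of a neighbouring pair of pectinesterases were higher with cadmium alone, while 2 XTH23 genes were higher and 3 endoglucanases lower with the combined treatment. Of these, only expansin-A15, XTH23 LOC111909626 and endoglucanase 6 LOC111894312 kept the call with each library left out in turn. Expansin-A15 was also called higher in SeNP and in CdSeNP. In the authors' deposited table of Cd against CK, 9 members were higher and 5 lower, where 3.47% of all tested genes were called higher and 1.39% lower. SeNP against CK gave 1 member higher and 5 lower, with 1.24% and 2.07% of tested genes called. CdSeNP against CK gave 4 higher and 11 lower, against 1.25% and 1.33% of tested genes. How many wall genes were tested is not known, since uncalled genes are not listed, so these counts cannot be turned into a share of the members.

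Between the treated groups, CdSeNP against Cd gave 4 members higher and 9 lower, where 1.09% and 0.788% of tested genes were called. CdSeNP against SeNP gave 11 higher and 2 lower, with 3.24% and 0.625% of tested genes called. SeNP against Cd gave 2 higher and 5 lower, with 0.67% and 1.51%. Of the listed members 30.8% were higher in CdSeNP than in Cd, where 58.0% of all genes in that table were higher. For CdSeNP against CK the shares were 26.7% and 48.5%, and for SeNP against CK 16.7% and 37.6%. The shares lay closer in the other tables, at 64.3% and 71.4% for Cd against CK, 84.6% and 83.8% for CdSeNP against SeNP, and 28.6% and 30.7% for SeNP against Cd. These splits depend on the scaling. In edgeR refits with TMM (trimmed mean of M-values) computed on the listed genes, which all had been called, higher and lower members were 1 and 5 for Cd against CK, 1 and 0 for SeNP against CK, 4 and 3 for CdSeNP against CK, 0 and 9 for CdSeNP against Cd, 0 and 2 for CdSeNP against SeNP, and 2 and 1 for SeNP against Cd. With library totals, and the authors' p kept, the calls against CK were 9 and 3 in Cd, 1 and 5 in SeNP, and 4 and 8 in CdSeNP, and those between treated groups were as reported. Under TMM expansin-A15 was the 1 member still called higher in Cd, the 3 lower in CdSeNP than in CK were XTH32, extensin-1 and LOC111917316, and the 1 lower in SeNP than in Cd was extensin-2. The comparisons share groups of libraries, so none of them is an independent repeat of another.

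**Figure D1:**
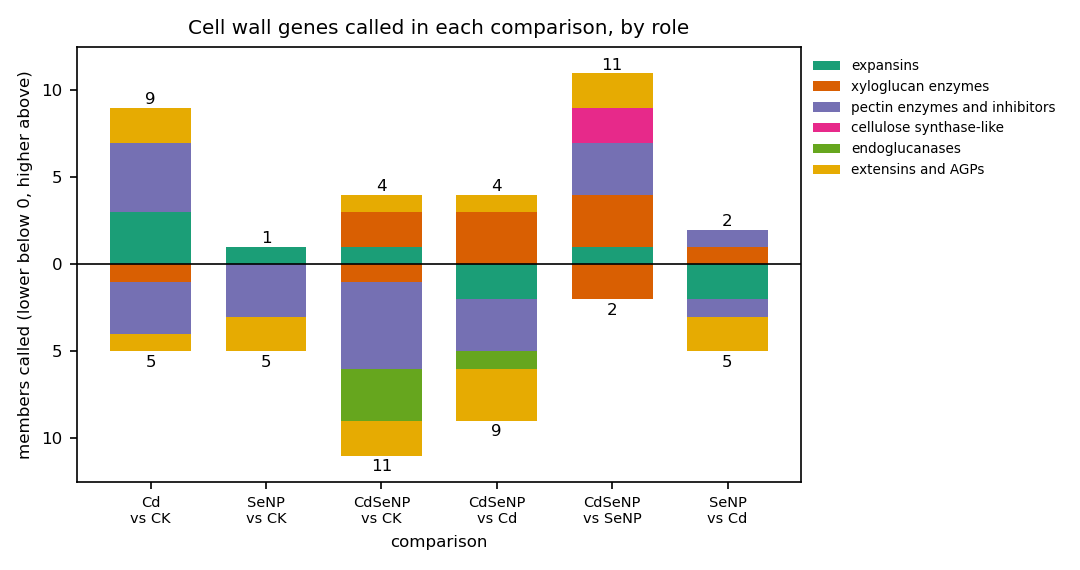
Number of cell wall genes that the authors' deposited tables call higher (above 0) or lower (below 0) in each comparison, coloured by role. The bar for Cd against CK holds 9 above and 5 below, and that for CdSeNP against CK 4 above and 11 below.

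Markers of other cell types moved with the same comparisons, and their part in the wall gene results was not tested. These lists also hold called genes only, so uncalled markers are missing from the counts and sums. Of 106 listed genes named as histones, mitotic cyclins, kinesins or replication factors, 103 were higher in Cd, 69 in SeNP and 19 in CdSeNP than in CK, and 0 were lower. The 18 of them with values in every library summed to 39.3 to 111.9 FPKM in CK, 219.1 to 292.3 in Cd, 189.9 to 202.0 in SeNP and 145.1 to 181.3 in CdSeNP. Of 30 listed mesophyll genes, 26 were lower in Cd and 25 in CdSeNP than in CK, and 0 were called in SeNP against CK. Of 20 listed epidermal and cuticle genes, 12 were higher and 4 lower in Cd, 4 were higher and 0 lower in SeNP, and 1 was higher and 2 lower in CdSeNP, all against CK. Of 11 xylem and vascular genes, mostly laccases, 1 was higher and 1 lower in Cd, 3 were higher and 1 lower in SeNP, and 0 were called in CdSeNP. Between treated groups, 25 mesophyll genes were lower in CdSeNP than in SeNP, 27 were higher in SeNP than in Cd, and 0 were called in CdSeNP against Cd. Epidermal genes gave 0 higher and 6 lower in CdSeNP against Cd, 3 higher and 1 lower in CdSeNP against SeNP, and 1 higher and 5 lower in SeNP against Cd. The xylem and vascular genes gave 0 higher and 2 lower, 1 higher and 6 lower, and 2 higher and 0 lower in the same comparisons. The dividing-cell genes gave 0 higher in all of these, with 1, 0 and 2 lower. In whole leaves, fewer cells of a type and less RNA per cell cannot be told apart.

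Expansins are proteins that let wall polymers slip past each other as cells grow. All 6 members carry an expansin C-terminal domain in the deposited annotation. Against CK, 3 were higher in Cd, 1 was higher in SeNP and 1 in CdSeNP, and 0 were lower in any of these tables. The calls in SeNP and CdSeNP were both of expansin-A15. Of all tested genes, 3.47% were called higher in Cd, 1.24% in SeNP and 1.25% in CdSeNP. Both expansin-A1 genes are members only through Cd against CK, where 71.4% of all listed genes were higher. Uncalled expansins are not listed, so the counts do not describe the whole class.

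Expansin-A15 (LOC111877762; chromosome 4, 201419943 to 201421477, minus strand) was barely detected in CK, at 0.0295, 0.385 and 0.301 FPKM, or 24 reads over the 3 libraries. It stood at 2.14, 4.43 and 3.38 FPKM in Cd, 1.44, 1.62 and 2.00 in SeNP, and 0.774, 1.38 and 1.32 in CdSeNP. Every treated library lay above every control, every Cd library lay above every SeNP and CdSeNP library, and CdSeNP lay below SeNP. It was 12.8-fold higher in Cd than in CK in the authors' deposited table, a log2 fold change of 3.68 with a standard error of 0.49 recovered from the p (adjusted p = 6.63e-12). The same tables gave 6.95-fold in SeNP (adjusted p = 2.07e-06) and 4.59-fold in CdSeNP (adjusted p = 0.00218). It was 2.77-fold lower in CdSeNP than in Cd in the authors' deposited table (adjusted p = 8.11e-07). The CdSeNP against CK call ended in edgeR refits without CK 3, CdSeNP 2 or CdSeNP 3, with a log2 fold change of 1.67 to 2.69 over the libraries left out.

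Both expansin-A1 genes lie on chromosome 4 and rose in Cd. LOC111888215 measured 13.7, 10.7 and 7.90 FPKM in CK and 31.9, 22.5 and 24.6 in Cd, without overlap. It was 2.26-fold higher in the authors' deposited table (log2 1.18, recovered SE 0.21, adjusted p = 5.94e-07). LOC111880097 measured 5.24, 8.14 and 4.35 FPKM in CK and 11.7, 15.8 and 13.2 in Cd, and its 2.12-fold call in the authors' deposited table had an adjusted p = 1.45e-05. CK 2 was the control closest to Cd for the latter gene and not for the former. In refits the call of LOC111888215 ended without CK 3 or Cd 1 (log2 1.00 nearest to 0 over all leave-outs), and that of LOC111880097 without CK 1, CK 3 or any 1 Cd library (log2 0.92 to 1.18).

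Expansin-A4 (LOC111898216) was called only in SeNP against Cd and in CdSeNP against Cd, lower in both. It is a member through those comparisons alone, so its high level in Cd comes with that selection. It was not called in Cd against CK, and its values in CK are not listed. It measured 29.4, 28.5 and 31.5 FPKM in Cd, 11.1, 10.6 and 10.7 in SeNP, and 14.8, 14.6 and 13.5 in CdSeNP, with no library of one group inside another. The authors' deposited tables give it as 2.58-fold lower in SeNP than in Cd (adjusted p = 3.13e-45) and 2.02-fold lower in CdSeNP than in Cd (adjusted p = 1.19e-27). The second call lies just past the fold threshold, and it ended without Cd 3 or CdSeNP 3 (log2 -0.98 nearest to 0).

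Expansin-like A1 proteins share the expansin fold, and their action on the wall is less well known. LOC111884314 averaged 2.05 ± 0.692 FPKM in Cd and 0.947 ± 0.165 in SeNP (SD, n = 3 each). It was lower in SeNP by a log2 of 1.02 in the authors' deposited table (adjusted p = 0.0121), and the sign flipped, to 0.06, when libraries were scaled by TMM on the listed genes. That call also ended without Cd 2, Cd 3 or any 1 SeNP library (log2 -0.80 without Cd 2). LOC111889708 averaged 7.90 ± 1.16 FPKM in SeNP and 19.4 ± 0.681 in CdSeNP. It was 2.38-fold higher in CdSeNP in the authors' deposited table (adjusted p = 9.84e-27), with a flip to -0.02 on the log2 scale under TMM.

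**Figure D2:**
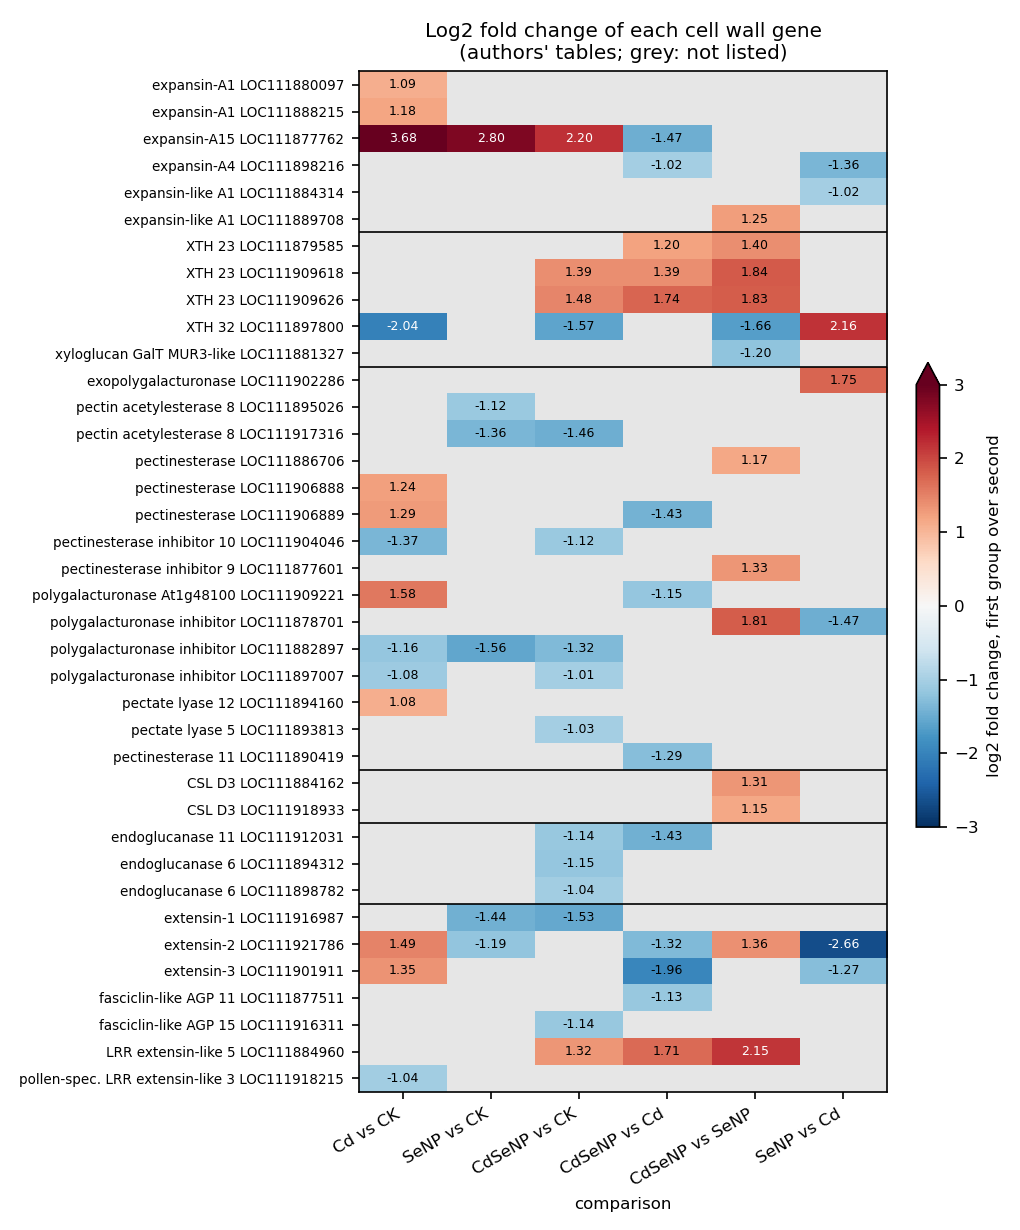
Log2 fold change of each of the 38 members, first-named group over second, in the 6 deposited tables. Grey cells mark a comparison in which the gene is not listed, and the expansin-A15 cell for Cd against CK holds the largest value, 3.68.

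XTHs cut a xyloglucan chain and join it to another, which can loosen or repair the wall. The 4 members of this family fell into opposite patterns: XTH32 was low wherever cadmium was present, and 3 XTH23 genes were high where cadmium and nanoparticles were combined. All 4 carry a glycosyl hydrolase family 16 domain. Each XTH23 gene is a member only through comparisons that include CdSeNP, so its high level there comes with that selection. XTH32 is likewise a member only through comparisons of a group with cadmium and a group without.

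XTH32 (LOC111897800; chromosome 6, 62615706 to 62618242, minus strand) measured 33.0, 28.2 and 42.4 FPKM in CK and 39.2, 38.8 and 36.1 in SeNP. It measured 9.96, 8.65 and 8.81 FPKM in Cd and 12.6, 11.8 and 12.7 in CdSeNP. All 6 libraries with cadmium lay below all 6 without, and SeNP against CK gave no call. It was 4.11-fold lower in Cd than in CK in the authors' deposited table (log2 -2.04, recovered SE 0.17, adjusted p = 1.19e-29). It was 2.98-fold lower in CdSeNP than in CK (adjusted p = 6.79e-19) and 3.17-fold lower in CdSeNP than in SeNP (adjusted p = 3.68e-89) in the authors' deposited tables. SeNP stood 4.46-fold above Cd in the fourth of the authors' deposited tables that list it (adjusted p = 5.25e-130). None of the 4 calls ended in any refit that left out 1 library. The mesophyll sums given above, which hold called genes only, were likewise low in Cd and CdSeNP and high in CK and SeNP. Whether they bear on it was not tested.

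The more abundant XTH23 gene (LOC111909626; chromosome 8, 102948976 to 102950216, plus strand) measured 53.0, 24.7 and 54.7 FPKM in CK, 44.9, 38.7 and 37.9 in Cd, and 36.2, 30.3 and 41.2 in SeNP. In CdSeNP, the group through which it became a member, it measured 144, 133 and 117 FPKM, above all 9 other libraries. The authors' deposited tables give it as 2.78-fold higher in CdSeNP than in CK (log2 1.48, recovered SE 0.38, adjusted p = 0.0017), 3.34-fold higher than in Cd (adjusted p = 4.53e-98) and 3.55-fold higher than in SeNP (adjusted p = 4.66e-28). CK 2 was the lowest control, and without it the log2 fold change against CK was 1.18 and still called.

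A second XTH23 gene (LOC111909618) lies 171 kb away on chromosome 8 and was also highest in CdSeNP, at a lower level. It averaged 1.41 ± 0.852 FPKM in CK, 1.55 ± 0.427 in Cd, 1.09 ± 0.569 in SeNP and 3.97 ± 0.542 in CdSeNP (SD, n = 3 each), with every CdSeNP library above the rest. The authors' deposited tables give log2 fold changes of 1.39 against CK (adjusted p = 0.00587), 1.39 against Cd (adjusted p = 1.65e-08) and 1.84 against SeNP (adjusted p = 1.73e-10). The call against CK ended without CK 1, without CK 2 (log2 0.99) or without any 1 CdSeNP library, and in the edgeR refit of all libraries. Another XTH23 gene (LOC111879585, chromosome 7) averaged 2.22 ± 0.357 FPKM in Cd, 1.82 ± 0.272 in SeNP and 4.95 ± 0.343 in CdSeNP. Its values in CK are not listed. It was 2.29-fold higher in CdSeNP than in Cd and 2.65-fold higher than in SeNP in the authors' deposited tables (adjusted p = 3.4e-09 and 3.64e-11). Near-identical copies can share reads, and how such reads were counted is not given in the sources used here, so the split of counts among XTH23 copies is uncertain. For all 3 genes TMM on the listed genes kept the direction and ended the calls against Cd and SeNP, at log2 fold changes of 0.13 for LOC111879585 against SeNP to 0.96 for LOC111909626 against Cd.

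The fifth xyloglucan enzyme is a galactosyltransferase named MUR3-like (LOC111881327). In Arabidopsis MUR3 adds galactose to xyloglucan side chains. It averaged 0.638 ± 0.123 FPKM in SeNP and 0.283 ± 0.0669 in CdSeNP, on 106 and 48 reads, and the authors' deposited table calls it 2.31-fold lower (adjusted p = 0.00598).

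**Figure D3:**
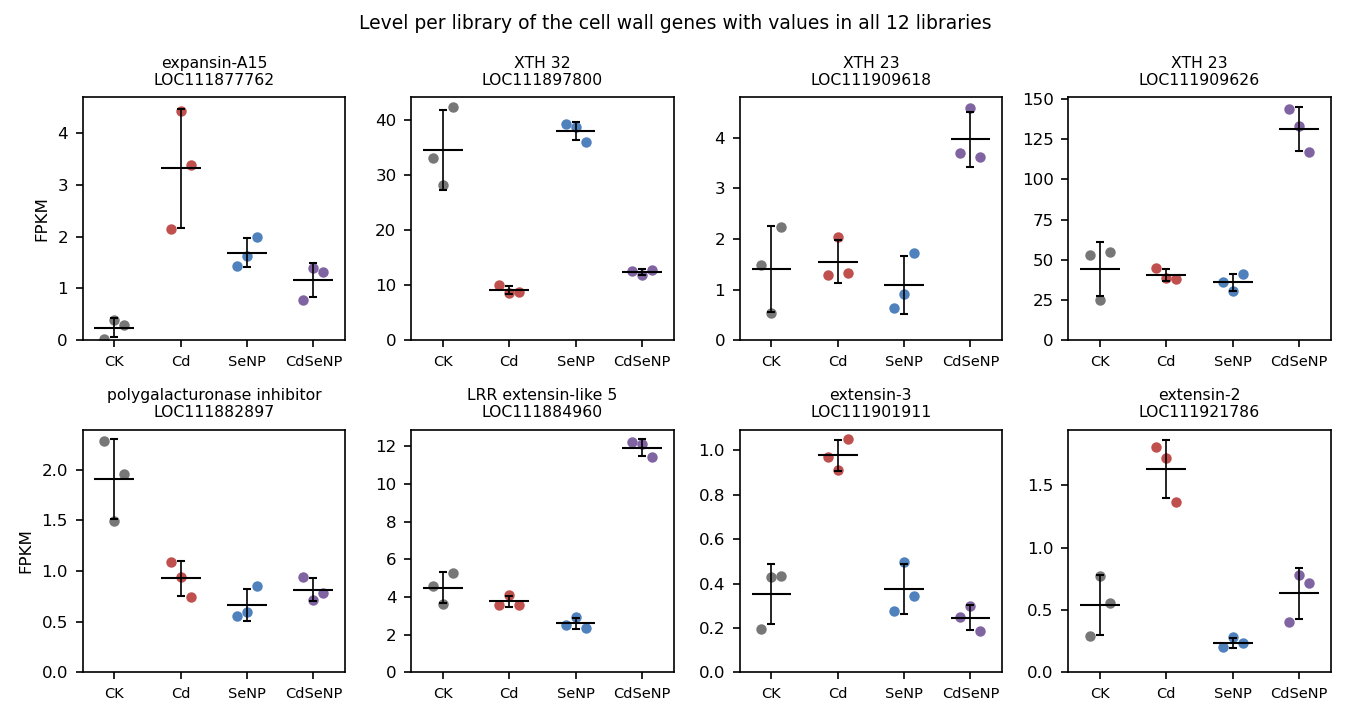
FPKM in each library for the 8 members with values in all 12 libraries, with the group mean (line) and SD (bar). XTH32 is low in both groups with cadmium, and both XTH23 genes and the leucine-rich repeat extensin-like gene are highest in CdSeNP.

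Pectin enzymes and their inhibitors were the largest class, with 15 members. Against CK, 4 were higher and 3 lower in Cd, 0 were higher and 3 lower in SeNP, and 0 were higher and 5 lower in CdSeNP. Of all tested genes, 3.47% and 1.39% were called higher and lower in Cd, 1.24% and 2.07% in SeNP, and 1.25% and 1.33% in CdSeNP. Uncalled pectin genes are not listed, so neither these counts nor a split by kind of protein describes the whole class. LOC111906888 and LOC111894160 are members only through Cd against CK. The 4 higher in Cd were enzymes that demethylate or cut pectin, and the 3 lower in Cd were all inhibitors. Of these 3, LOC111882897 and LOC111897007 are polygalacturonase inhibitors, a type known for blocking fungal enzymes. TMM on the listed genes ended all 4 higher calls (log2 0.18 to 0.60) and kept the 3 lower. With each library left out in turn, only the Cd calls of LOC111909221 and LOC111904046 held throughout.

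A pair of neighbouring pectinesterases on chromosome 4, separated by 24229 bases, was higher in Cd. LOC111906888 (158325829 to 158329945, plus strand) measured 1.70, 3.93 and 1.89 FPKM in CK and 5.94, 6.69 and 6.56 in Cd. It was 2.36-fold higher in Cd in the authors' deposited table (adjusted p = 7.96e-05). Its neighbour LOC111906889 was scarcer, with 37 reads over the CK libraries, 109 over Cd and 34 over CdSeNP. The authors' deposited tables call this gene 2.44-fold higher in Cd than in CK (adjusted p = 0.0407) and 2.69-fold lower in CdSeNP than in Cd (adjusted p = 0.00423). CK 2 was the control nearest to Cd for both genes. Without it the log2 fold changes were 1.70 and 1.96, and both calls ended without CK 1 (1.03 and 0.95), CK 3 or any 1 Cd library. The call of LOC111906889 against CK also ended in the edgeR refit of all libraries.

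A polygalacturonase named At1g48100 (LOC111909221) measured 0.330, 0.515 and 0.374 FPKM in CK, 0.804, 1.72 and 1.45 in Cd, and 0.501, 0.671 and 0.558 in CdSeNP. Cd libraries lay above both other groups. The authors' deposited tables give 3.00-fold higher in Cd than in CK (adjusted p = 0.000339) and 2.23-fold lower in CdSeNP than in Cd (adjusted p = 0.00078), the second ending without Cd 2 (log2 -0.91) or CdSeNP 1. Pectate lyase 12 (LOC111894160) measured 3.08, 8.33 and 4.07 FPKM in CK and 10.9, 13.0 and 11.5 in Cd. Its 2.12-fold call in the authors' deposited table (adjusted p = 0.00173) ended in the edgeR refit of all libraries and without CK 1 (log2 0.82), CK 3 or any 1 Cd library, and the log2 was 1.59 without CK 2.

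Of the inhibitors, pectinesterase inhibitor 10 (LOC111904046; chromosome 8, 13157134 to 13158057) was by far the most abundant. It measured 109, 74.4 and 97.0 FPKM in CK, 43.5, 39.0 and 35.8 in Cd, and 46.3, 45.0 and 46.6 in CdSeNP. Both groups with cadmium lay below all controls. It was 2.58-fold lower in Cd (log2 -1.37, recovered SE 0.16, adjusted p = 1.29e-15) and 2.17-fold lower in CdSeNP (adjusted p = 7.36e-12) in the authors' deposited tables. Without CK 1 the CdSeNP call ended, at -0.98 on the log2 scale.

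Polygalacturonase inhibitors are leucine-rich repeat proteins known for blocking the pectin-cutting enzymes of fungi. LOC111882897 measured 2.28, 1.49 and 1.95 FPKM in CK, and every treated library lay lower: 1.09, 0.946 and 0.745 in Cd, 0.560, 0.596 and 0.848 in SeNP, and 0.939, 0.718 and 0.785 in CdSeNP. The authors' deposited tables give log2 fold changes against CK of -1.16 in Cd (adjusted p = 0.00267), -1.56 in SeNP (adjusted p = 0.000399) and -1.32 in CdSeNP (adjusted p = 0.00132). Its Cd call ended without CK 1 (log2 just past -1), Cd 2 or Cd 3. A second such gene, LOC111897007, averaged 3.39 ± 1.05 FPKM in CK, 1.74 ± 0.254 in Cd and 1.80 ± 0.564 in CdSeNP. In its CdSeNP call (log2 -1.01, adjusted p = 0.0152 in the authors' deposited table) libraries of the groups overlapped, CK 2 at 2.30 FPKM lying below CdSeNP 2 at 2.41. Its calls in Cd and in CdSeNP each ended without 5 of 6 libraries left out in turn, CK 2 being the exception, and without CK 1 the values were -0.84 and -0.77. The CdSeNP call also ended in the edgeR refit of all libraries, and both ended with library totals (-0.96 and -0.91). The third, LOC111878701, averaged 0.757 ± 0.132 FPKM in Cd, 0.258 ± 0.100 in SeNP and 0.921 ± 0.0375 in CdSeNP, and was lowest in SeNP. In the authors' deposited tables it was 2.77-fold lower in SeNP than in Cd (adjusted p = 0.00761) and 3.51-fold higher in CdSeNP than in SeNP (adjusted p = 0.000196).

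Pectin acetylesterases remove acetyl groups from pectin, and 2 genes named pectin acetylesterase 8 fell in SeNP. LOC111895026 measured 6.42, 6.63 and 7.67 FPKM in CK and 3.07, 3.14 and 3.58 in SeNP, a 2.17-fold fall in the authors' deposited table (adjusted p = 1.97e-09) that ended without SeNP 1 or SeNP 2. LOC111917316 was scarcer, with 84 reads over CK, 32 over SeNP and 31 over CdSeNP. The authors' deposited tables give log2 fold changes of -1.36 in SeNP (adjusted p = 0.0489) and -1.46 in CdSeNP (adjusted p = 0.0127). Its SeNP call ended in the edgeR and DESeq2 refits and without CK 1, CK 3 or any 1 SeNP library (log2 -0.97 without SeNP 1).

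Pectate lyase 5 (LOC111893813; chromosome 8, 290199960 to 290202511) had the highest level of any member. It measured 176, 146 and 157 FPKM in CK and 77.0, 83.4 and 90.0 in CdSeNP, a 2.04-fold fall in the authors' deposited table (log2 -1.03, recovered SE 0.11, adjusted p = 7.51e-19). The fold lies near the threshold, and the call ended without CK 1 (log2 -0.94) or CdSeNP 1 and with library totals (-0.94).

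The remaining pectin genes were called between treated groups only. Pectinesterase LOC111886706 averaged 5.81 ± 0.0937 FPKM in SeNP and 13.4 ± 1.51 in CdSeNP, 2.25-fold higher in the authors' deposited table (adjusted p = 6.36e-29), with a flip to -0.11 on the log2 scale under TMM on the listed genes. Pectinesterase inhibitor 9 (LOC111877601) averaged 0.446 ± 0.0922 and 1.15 ± 0.207 FPKM in the same groups, with log2 1.33 in the authors' deposited table (adjusted p = 0.00925). Pectinesterase 11 (LOC111890419) averaged 1.01 ± 0.184 FPKM in Cd and 0.397 ± 0.201 in CdSeNP, and was lower by 1.29 on the log2 scale in the authors' deposited table (adjusted p = 0.00327). That call ended without Cd 1, CdSeNP 1 (log2 -0.93) or CdSeNP 2. Exopolygalacturonase LOC111902286 was higher in SeNP than in Cd, on 94 and 35 reads, by 3.36-fold in the authors' deposited table (adjusted p = 0.000242).

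Cellulose synthase-like D proteins are known in Arabidopsis for building wall polymers in root hairs and other tip-growing cells. Both members are named D3, both carry the cellulose synthase domain, and both were higher in CdSeNP than in SeNP and not called elsewhere. They are members only through that comparison, which called 3.24% of all tested genes higher, and uncalled genes of this class are not listed. LOC111884162 measured 16.1, 15.3 and 17.3 FPKM in SeNP and 43.7, 41.5 and 39.4 in CdSeNP, which is 2.49-fold in the authors' deposited table (log2 1.31, recovered SE 0.06, adjusted p = 8.49e-94). LOC111918933 measured 4.50, 4.46 and 5.54 FPKM in SeNP and 10.8, 11.7 and 10.7 in CdSeNP. It was 2.22-fold higher in the authors' deposited table (adjusted p = 4.15e-37), and its sign flipped to -0.12 on the log2 scale under TMM. That scaling also ended the call of LOC111884162, at 0.04.

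Endoglucanases of glycosyl hydrolase family 9 trim cellulose and related glucans. All 3 members were lower in CdSeNP than in CK, and none was called in Cd or SeNP against CK. LOC111894312 and LOC111898782 are members only through that comparison, and uncalled endoglucanases are not listed. The count therefore does not describe the whole class. Of all tested genes, 1.33% were called lower in CdSeNP than in CK. Endoglucanase 6 (LOC111894312; chromosome 3, 16005000 to 16009652) measured 45.7, 45.6 and 44.0 FPKM in CK and 20.1, 21.5 and 23.1 in CdSeNP. It was 2.22-fold lower in the authors' deposited table (log2 -1.15, recovered SE 0.09, adjusted p = 4.49e-39), and the call held without each library. A second endoglucanase 6 (LOC111898782) averaged 13.3 ± 2.17 FPKM in CK and 6.86 ± 1.24 in CdSeNP, at log2 -1.04 in the authors' deposited table (adjusted p = 8.66e-09). Endoglucanase 11 (LOC111912031) averaged 2.88 ± 0.907 FPKM in CK, 3.87 ± 0.111 in Cd and 1.38 ± 0.400 in CdSeNP. It was 2.2-fold lower in CdSeNP than in CK (adjusted p = 0.000961) and 2.70-fold lower than in Cd (adjusted p = 1.77e-13) in the authors' deposited tables. Calls against CK ended for LOC111898782 without CK 1, CK 2 or CdSeNP 1 (log2 -0.92) and with library totals (-0.96), and for LOC111912031 without CK 1, CK 2 (log2 -0.87), CdSeNP 1 or CdSeNP 2.

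Extensins are hydroxyproline-rich glycoproteins that cross-link into the wall, and arabinogalactan proteins are heavily glycosylated proteins of the wall and cell surface. Of 7 members in this class, 2 were higher and 1 lower in Cd, 2 were lower in SeNP, and 1 was higher and 2 lower in CdSeNP, all against CK. Of all tested genes, 3.47% and 1.39% were called higher and lower in Cd, 1.24% and 2.07% in SeNP, and 1.25% and 1.33% in CdSeNP. Uncalled genes of this class are not listed. The deposited Pfam text matched the name for 35 of all 38 members, and the 3 exceptions are in this class: LOC111921786, LOC111884960 and LOC111916987.

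Extensin-2 (LOC111921786; chromosome 2, 124045191 to 124050066, minus strand) carries a pollen Ole e 1-like domain in the annotation and was listed in 5 of 6 tables. It measured 0.289, 0.770 and 0.552 FPKM in CK, 1.81, 1.71 and 1.37 in Cd, 0.201, 0.283 and 0.232 in SeNP, and 0.404, 0.784 and 0.712 in CdSeNP. Cd libraries lay above all others and SeNP libraries below all others, with CK and CdSeNP overlapping. The authors' deposited tables give log2 fold changes of 1.49 in Cd (adjusted p = 1.66e-05) and -1.19 in SeNP (adjusted p = 0.0232) against CK, the only member called in opposite directions against the same group. They give -2.66 for SeNP against Cd (adjusted p = 3.89e-28), -1.32 for CdSeNP against Cd (adjusted p = 1.08e-09) and 1.36 for CdSeNP against SeNP (adjusted p = 6.28e-05). The SeNP against CK call ended in the edgeR refit and without CK 2 (log2 -0.85), CK 3 or any 1 SeNP library, and the Cd against CK call ended without Cd 1.

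Extensin-3 (LOC111901911), which carries an extensin-like region, measured 0.969, 0.912 and 1.05 FPKM in Cd. Its means in CK, SeNP and CdSeNP were 0.354 ± 0.136, 0.374 ± 0.113 and 0.246 ± 0.0567 FPKM (SD, n = 3 each), and no library of these groups reached the Cd level. The gene is a member only through comparisons with Cd, so its high level in Cd comes with that selection. The authors' deposited tables give log2 fold changes of 1.35 for Cd against CK (adjusted p = 0.0164), -1.27 for SeNP against Cd (adjusted p = 0.0154) and -1.96 for CdSeNP against Cd (adjusted p = 0.000257). These values rest on 21 to 99 reads per group, and the Cd against CK call ended without CK 1 (log2 1.06), Cd 2 or Cd 3. Extensin-1 (LOC111916987), for which no Pfam domain is listed, averaged 1.30 ± 0.349 FPKM in CK, 0.483 ± 0.160 in SeNP and 0.477 ± 0.0173 in CdSeNP. The authors' deposited tables call it lower by 1.44 on the log2 scale in SeNP (adjusted p = 0.0339) and by 1.53 in CdSeNP (adjusted p = 0.0162). The SeNP call ended without CK 3, SeNP 1 (log2 -1.27) or SeNP 3, and the CdSeNP call without CdSeNP 2.

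Leucine-rich repeat extensin-like protein 5 (LOC111884960; chromosome 7, 198592630 to 198594041, minus strand) is annotated with an X8 domain and with no extensin region. It measured 4.57, 3.63 and 5.27 FPKM in CK, 3.58, 4.12 and 3.59 in Cd, 2.50, 2.92 and 2.37 in SeNP, and 12.2, 12.1 and 11.4 in CdSeNP. CdSeNP libraries lay above the other 9, and SeNP libraries lay below all the rest. The gene is a member only through comparisons with CdSeNP, so its high level there comes with that selection. In the authors' deposited tables it was 2.50-fold higher in CdSeNP than in CK (log2 1.32, recovered SE 0.17, adjusted p = 1.25e-12), 3.26-fold higher than in Cd (adjusted p = 8.44e-41) and 4.43-fold higher than in SeNP (adjusted p = 7.82e-51). None of these calls ended when any 1 library was left out, but TMM on the listed genes ended those against Cd (log2 0.93) and SeNP (0.86).

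Fasciclin-like arabinogalactan proteins are thought to act in cell adhesion and wall strength. Number 15 (LOC111916311) measured 14.0, 13.6 and 12.7 FPKM in CK and 5.81, 6.71 and 6.89 in CdSeNP, a 2.21-fold fall in the authors' deposited table (adjusted p = 2.81e-20). Number 11 (LOC111877511) averaged 12.2 ± 1.91 FPKM in Cd and 5.40 ± 1.20 in CdSeNP, 2.19-fold lower in the authors' deposited table (adjusted p = 1.73e-12). The latter call ended without Cd 1 or CdSeNP 1 (log2 -0.98). A pollen-specific leucine-rich repeat extensin-like protein 3 (LOC111918215) averaged 1.06 ± 0.341 FPKM in CK and 0.559 ± 0.126 in Cd, at log2 -1.04 in the authors' deposited table (adjusted p = 0.0169). That call ended in the edgeR refit, with library totals (log2 -0.92), and without CK 1 (log2 -0.79), CK 3 or any 1 Cd library.

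Whether the response to cadmium differed with nanoparticles was tested as the interaction of both agents, CdSeNP minus SeNP less Cd minus CK. edgeR's quasi-likelihood test was applied to the 575 listed genes with values in all 12 libraries, 8 of them members, with p adjusted over the 575. These genes are in the fit because some comparison called them, so a high share passes by selection. Of all fitted genes 45.2% passed with a positive and 28.5% with a negative interaction, 73.7% together, and 6 of 8 members passed, 4 positive and 2 negative, which is near that background. The median interaction on the log2 scale was 0.51 over all fitted genes and 0.89 over the members.

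The positive ones were leucine-rich repeat extensin-like protein 5 at 2.52 on the log2 scale (SE 0.265, edgeR adjusted p = 1.55e-05), XTH23 LOC111909626 at 2.08 (SE 0.348, adjusted p = 0.000211), XTH23 LOC111909618 at 1.82 (SE 0.605, adjusted p = 0.0153) and polygalacturonase inhibitor LOC111882897 at 1.41 (SE 0.364, adjusted p = 0.0037). For the first 3 the cadmium response was positive with nanoparticles and not called without. For the inhibitor, Cd against CK was a fall and CdSeNP against SeNP was not called, with low levels in all treated groups. The negative ones were expansin-A15 at -4.25 (SE 0.617, adjusted p = 8.56e-05) and extensin-3 at -2.01 (SE 0.497, adjusted p = 0.00279), both high in Cd and lower in CdSeNP. For expansin-A15, SeNP and CdSeNP were also called higher than CK, and CdSeNP against SeNP was not called. Its interaction rests on 24 reads over the CK libraries. Expansin-A15 was called higher with each agent alone, and the interaction test gave a lower cadmium response with nanoparticles than without. The cause of that difference was not tested.

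XTH32 LOC111897800 at 0.37 (SE 0.235, adjusted p = 0.167) and extensin-2 LOC111921786 at -0.14 (SE 0.474, adjusted p = 0.821) did not pass. Without CK 2, XTH32 passed (adjusted p = 0.0108, over leave-outs 0.0108 to 0.438), and without CK 3, XTH23 LOC111909618 did not (adjusted p = 0.0602, over leave-outs 0.000217 to 0.0602). With TMM scaling on the listed genes LOC111882897 and LOC111909618 no longer passed (adjusted p = 0.786 and 0.473), XTH32 flipped to -0.93 and passed, as did extensin-2 at -1.39 (adjusted p = 0.00043 and 0.0275), and the median over all fitted genes moved from 0.51 to -0.73. Over all alternatives run the adjusted p ranged from 0.000743 to 0.786 for LOC111882897, 0.000217 to 0.473 for LOC111909618, 0.00043 to 0.438 for XTH32 and 0.0275 to 0.953 for extensin-2.

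**Figure D4:**
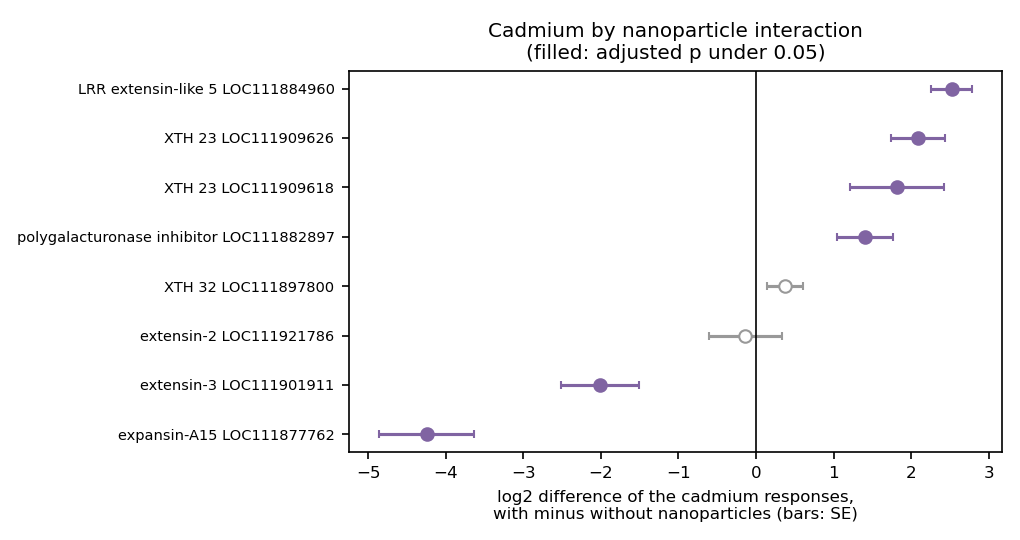
Interaction of cadmium and nanoparticles for the 8 members with values in all 12 libraries, on the log2 scale, with SE bars. Filled points passed at an adjusted p under 0.05: 4 are positive, up to 2.52, and 2 negative, down to -4.25.

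Because CK 2 stood apart, its place was measured for each call against CK on a log2 scale where 0 is the mean of CK 1 and CK 3 and 1 is the treated mean. For members higher in Cd its median place was 0.474, and for all genes listed as higher it was 0.515. The members lower in Cd gave 0.414, where all listed gave 0.272. For members lower in SeNP the place was -0.024, where all listed gave 0.346, and the 1 member higher in SeNP gave 0.43, where all listed gave 0.669. For members lower in CdSeNP it was 0.023, where all listed gave 0.153. The members higher in CdSeNP gave -0.7, where all listed gave 0.038. CK 2 thus lay part of the way toward Cd for most members called in Cd, and beyond the other controls for 3 of 4 members higher in CdSeNP. With CK 2 left out, 9 members were called higher and 5 lower in Cd, 1 higher and 4 lower in SeNP, and 3 higher and 9 lower in CdSeNP. These refits held only genes already called in each comparison, so they could end calls but not add any.

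**Figure D5:**
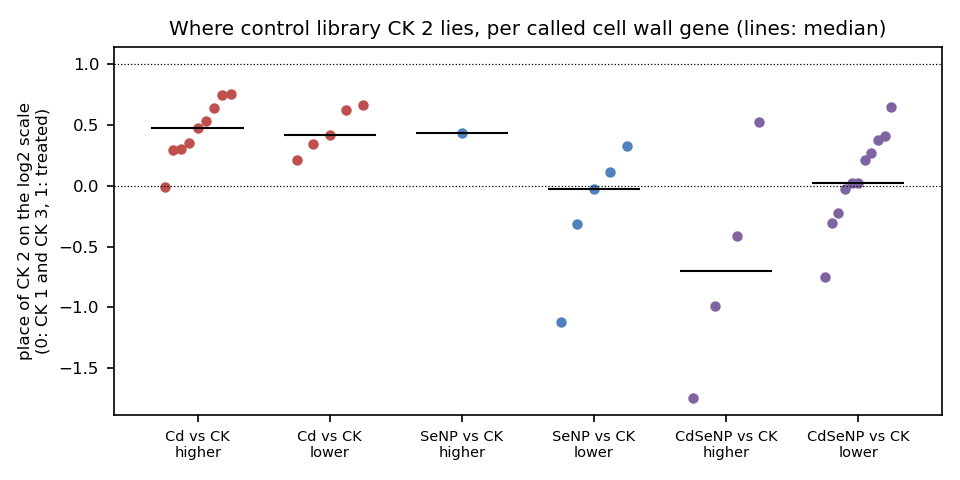
Place of library CK 2 for each member call against CK, where 0 is the mean of CK 1 and CK 3 and 1 the treated mean on the log2 scale, with lines at the medians. The median is 0.474 for members higher in Cd and -0.7 for members higher in CdSeNP.

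Other genes of wall synthesis and turnover were taken from a separate list of name words, which matched 17 listed genes. Of these 7 were higher and 1 lower in Cd, 1 higher and 4 lower in SeNP, and 3 higher and 2 lower in CdSeNP, all against CK. CdSeNP against Cd gave 1 higher and 3 lower, CdSeNP against SeNP 7 higher and 0 lower, and SeNP against Cd 0 higher and 3 lower. The list holds 3 zeatin O-xylosyltransferases, which act on cytokinins and not on the wall, and all 3 are among the 4 lower in SeNP against CK and the 7 higher in CdSeNP against SeNP, and 2 among the 3 lower in SeNP against Cd. In the authors' deposited tables a putative cell wall protein (LOC111899681) had log2 fold changes of 3.30 in Cd and 1.41 in CdSeNP against CK. Trichome birefringence-like 2 (LOC111881592), of a family that acetylates wall polysaccharides, had 2.21 in Cd, 1.63 in SeNP and 1.29 in CdSeNP in the authors' deposited tables. Both genes named beta-galactosidase 3, LOC111897359 and LOC111915755, were higher in Cd only among the comparisons with CK, at 1.17 and 1.05 in the authors' deposited tables. Xylan glycosyltransferase MUCI21 (LOC111887581) was higher in CdSeNP than in CK, Cd and SeNP, at log2 fold changes of 1.07, 1.24 and 1.68 in the authors' deposited tables.

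The members lie on all 9 chromosomes, from 2 on chromosomes 1, 2 and 5 to 7 on chromosome 4. The authors' genome build is not given in the sources used here, but start and end of all 38 members are those of RefSeq's Lsat_Salinas_v11 annotation. Between members the highest listed group mean ranged from 0.403 to 159.9 FPKM. It was over 10 FPKM for 17 members and under 1 FPKM for 6. Of the 38, 20 were listed in 1 table, 10 in 2, 5 in 3, 2 in 4 and 1 in 5, and 13 were in no comparison with CK.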

How the data were processed

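Leaf RNA of 12 libraries was sequenced after poly(A) selection, per the labels' protocols. The submitters' processing notes name DESeq2 1.34.0, StringTie 2.2.1, HISAT2 2.2.1, Trimmomatic and fastp 0.23.0. The sources used here do not state which step each served, the genome build or the strand setting. Each of the 6 deposited tables gives, per the file headers, raw read counts, FPKM values, a log2 fold change, and a p-value with its adjusted p-value for each called gene. No listed gene had an adjusted p above 0.05 or a log2 fold change of 1 or less in size. The number of value columns left unmapped was 0.

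Because the tables list only called genes, no test over all genes could be rerun, and the authors' deposited calls are the result reported. Each table's count of tested genes was worked out from adjusted p, p and rank. Size factors were recovered from the counts and the deposited log2 fold changes (median absolute residual 0.00072), library totals from counts, FPKM and gene lengths, and standard errors as the log2 fold change over the normal quantile of its p. The interaction was fitted with edgeR 4.0.16 (quasi-likelihood, Benjamini-Hochberg) on 575 genes. Refits of listed genes with edgeR and DESeq2 1.42.0 (R 4.3.3) called a gene at a log2 fold change over 1 and a p no larger than the largest listed by the authors, 0.00731 to 0.0128. The edgeR interaction and the edgeR refit of Cd against CK were tested on simulated data. Other work used Python 3.11.15, pandas 2.3.3, numpy 2.4.6 and scipy 1.17.1.

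Genes were named with values by these rules: up to 3 per role, direction and comparison by smallest adjusted p with at least 1 FPKM in the higher group; members in 4 or more tables; members called in opposite directions; members within 100 kb of each other; and members past the interaction threshold. That gave 34 members, and the other 4, LOC111878701, LOC111881327, LOC111902286 and LOC111917316, were added after their values were seen so that every member is accounted for. Members and lists were chosen with earlier results of these data known. Alternatives tried were other scalings, thresholds, tools, a replicate block and leaving out each library. Precision is limited by 3 libraries per group, and an exact permutation test of 3 against 3 could not go below p = 0.1.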

Additional observations from a re-analysis of the deposited data

Results flagged for a closer look

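In 6 members the response to cadmium differed by the edgeR interaction test between plants with and without nanoparticles, each difference being on the log2 scale. Expansin-A15 LOC111877762 gave -4.246, and extensin-3 LOC111901911 gave -2.011. Leucine-rich repeat extensin-like protein 5 LOC111884960 gave 2.523, XTH23 LOC111909626 gave 2.082, XTH23 LOC111909618 gave 1.819 and polygalacturonase inhibitor LOC111882897 gave 1.407. Of all 575 genes fitted, 73.7% passed the same test, since the genes had entered the fit by being called.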

How the results depend on the processing

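Of 68 member calls, 67 were kept in a DESeq2 refit, 61 in an edgeR refit, 63 with library totals, 57 at an adjusted p under 0.01, 55 with at least 1 FPKM in the higher group, 28 with TMM on the listed genes and 7 where the log2 change had to reach 2 in size. The DESeq2 and edgeR refits used the same counts and size factors recovered from the authors' fold changes. High retention there is therefore no independent check. With library totals only the fold change was recomputed, and the authors' p was kept. TMM assumes that most genes entered did not change, whereas every listed gene was called. Library totals shifted log2 fold changes by 0.1187 for Cd against CK and by -0.1007 for SeNP against Cd, and by under 0.1 elsewhere.

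With a log2 change of 2 or more in size required, the counts higher and lower became 1 and 1 for Cd against CK, 0 lower for SeNP against CK, 1 and 0 for CdSeNP against CK, 0 and 0 for CdSeNP against Cd, 1 and 0 for CdSeNP against SeNP, and 1 and 1 for SeNP against Cd. At an adjusted p under 0.01, 2 were lower for SeNP against CK and 3 for SeNP against Cd. With at least 1 FPKM, 3 were lower for SeNP against CK, 1 lower for CdSeNP against SeNP, and 1 higher and 3 lower for SeNP against Cd. Library totals left 3 lower for Cd against CK, and the edgeR refit 3 lower for SeNP against CK. TMM left 1 higher for Cd against CK, 0 lower for SeNP against CK, 3 lower for CdSeNP against CK, 0 higher for CdSeNP against Cd, 0 higher for CdSeNP against SeNP and 1 lower for SeNP against Cd. It also reversed LOC111886706 (-0.1132), LOC111889708 (-0.01858) and LOC111918933 (-0.122) in CdSeNP against SeNP, LOC111884314 in SeNP against Cd (0.06046) and the XTH32 LOC111897800 interaction (-0.9278).

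Leaving out each library in turn (refits with edgeR, in which a group left with 2 libraries shares the spread of the other) kept 41 of 68 calls throughout. The counts ranged from 3 to 9 higher and 2 to 5 lower for Cd against CK, 1 to 4 lower for SeNP against CK, and 2 to 3 higher and 6 to 10 lower for CdSeNP against CK. They were 6 to 8 lower for CdSeNP against Cd, 4 to 5 lower for SeNP against Cd, and 5 to 7 for the interaction, and the other counts held. Of 92 endings, 33 came from a log2 fold change of 1 or less and 59 from the p. Counts near 20 to 100 reads per group limit what members such as extensin-1, extensin-3, LOC111906889, LOC111917316, LOC111878701, LOC111902286 and LOC111877601 can show. The comparisons of expansin-A15 with CK rest on 24 reads over the CK libraries.

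Replicate numbers are shared by the groups, but the labels do not say that a number marks a shared batch. Same-numbered libraries did not consistently deviate together across the 3 numbers. Correlations over 575 genes were all positive for number 1, at 0.049 to 0.322. They ran from -0.041 to 0.397 for number 2 and from -0.244 to 0.174 for number 3. In each pair of groups, 2 to 4 of 6 libraries were closest to their own number. With the replicate block, 63 of 68 calls were kept: 9 higher and 5 lower in Cd, 1 and 5 in SeNP, and 3 and 9 in CdSeNP, against CK. The 5 calls not kept were LOC111897007, LOC111909618 and LOC111912031 in CdSeNP against CK, LOC111890419 in CdSeNP against Cd and LOC111884314 in SeNP against Cd. The interaction count was 6.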
